A study of Homo sapiens with 4 samples.

Results

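RNA levels of 40 human genes of the unfolded protein response (UPR) and of endoplasmic reticulum (ER)-associated degradation (ERAD) were compared between LDB1-knockdown and control cells. The members were a fixed list of gene symbols drawn up by function, with earlier results of these data known. All 40 had a row among the 28412 genes of the deposited table. The cells were labelled NB4, a human leukemia line described as promyelocytic, and no treatment besides the vectors was given in the labels. The lentiviral control vector sh-NC was in the cells of 2 libraries, and a lentiviral short hairpin RNA vector against LDB1 (sh-LDB1) in those of 2 more. LDB1 is a bridging cofactor of transcription factor complexes in blood cells. The study designed 3 hairpins against human LDB1, and which of them was sequenced here was not given in the labels. Infected cells were selected with puromycin, so each group was a selected pool of cells of 1 line. Whether the libraries of a group came from separate cultures was also not given, so the p-values measure only the spread between these libraries.

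The ER is where secreted and membrane proteins fold. When unfolded proteins build up there, the sensors IRE1 (encoded by ERN1), ATF6 and PERK (encoded by EIF2AK3) signal to the nucleus and the ribosome: IRE1 splices the mRNA of XBP1, ATF6 is cut free from the membrane by the site-1 and site-2 proteases, and PERK slows translation. The factors released this way raise the transcription of chaperones, of disulfide-forming enzymes and of the ERAD machinery, which draws misfolded proteins out of the ER for ubiquitination and proteasomal destruction.

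The targeted gene was low in the knockdown. LDB1 was at 135 and 120.1 FPKM under sh-NC against 10.2 and 9.47 FPKM under sh-LDB1, where FPKM counts fragments per kilobase of a gene's length at a common sequencing depth. The knockdown mean was 7.73% of the control mean. Whole reads recovered from the FPKM values gave 14487780 to 16791905 reads per library. The total that scaled each library's FPKM was 0.964 and 0.958 of its recovered reads in sh-NC, against 1.039 and 1.044 in sh-LDB1. The common depth was therefore not set by these reads alone, and the cause was not tested. Genes averaging 1 FPKM or more over the libraries were tested with limma on log2(FPKM + 1), a scale that understates changes of low genes, and a gene was called at an adjusted p below 0.05 over all 13300 genes tested. Of these, 3983 were called higher and 4978 lower in sh-LDB1, and the split was 4876 higher and 4047 lower when each library was instead scaled to the same total. That scaling raised the median change of all genes by 0.14 (log2). Of 7 promyelocytic markers, MPO and CTSG were not analysed here. The other 5 summed to 4.96 to 5.70 FPKM in sh-NC and 10.2 to 12.7 FPKM in sh-LDB1, and ELANE was at 0 in 3 of the 4 libraries. They did not move alike: of the 4 tested, PRTN3 and AZU1 were called higher, and CD33 and CEBPE were not called. CEBPE was lower in both knockdown libraries, at 1.55 and 1.27 FPKM in sh-NC against 0.92 and 0.34 FPKM in sh-LDB1. The 9 erythroid genes listed, globins and GATA1 among them, summed to 3922 and 4080 FPKM in sh-NC and to 377 and 341 FPKM in sh-LDB1. Of these, 9 of 9 were called lower, against 37.4% of all genes tested. The labelled cell type was therefore poorly matched by its defining markers, and the part of the erythroid change in the results was not tested. In these bulk samples fewer cells of a type and less RNA per cell cannot be told apart.

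Most UPR and ERAD genes that passed the test were higher after LDB1 knockdown. Of the 39 members tested, 25 rose, against 29.9% of all genes tested, and 3 fell, against 37.4%. The shares of members were 64.1% and 7.69%. They are a description and not a test, since the list was drawn up with earlier results known. Past 2-fold, 11 members (28.2%) rose against 9.50% of all genes, and 0 fell, against 10.3%. The 2 groups of libraries did not overlap for 28 members that were higher in both sh-LDB1 libraries, against 38.3% of all genes, and for 5 that were lower in both, against 46.3%. The median log2 fold change of the members was 0.56, beside -0.08 over all genes tested, whose quartiles were -0.57 and 0.43. The 1 member that was not tested was DERL3, which had 0.83 and 0.75 FPKM under sh-NC, then 0.84 and 0.59 FPKM under sh-LDB1. Summed over the members, the level was 1391 FPKM in each sh-NC library against 2331 and 2366 FPKM under sh-LDB1, a ratio of 1.69. The members took 0.436% and 0.435% of all FPKM under sh-NC, against 0.817% and 0.841% under sh-LDB1.

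**Figure D1:**
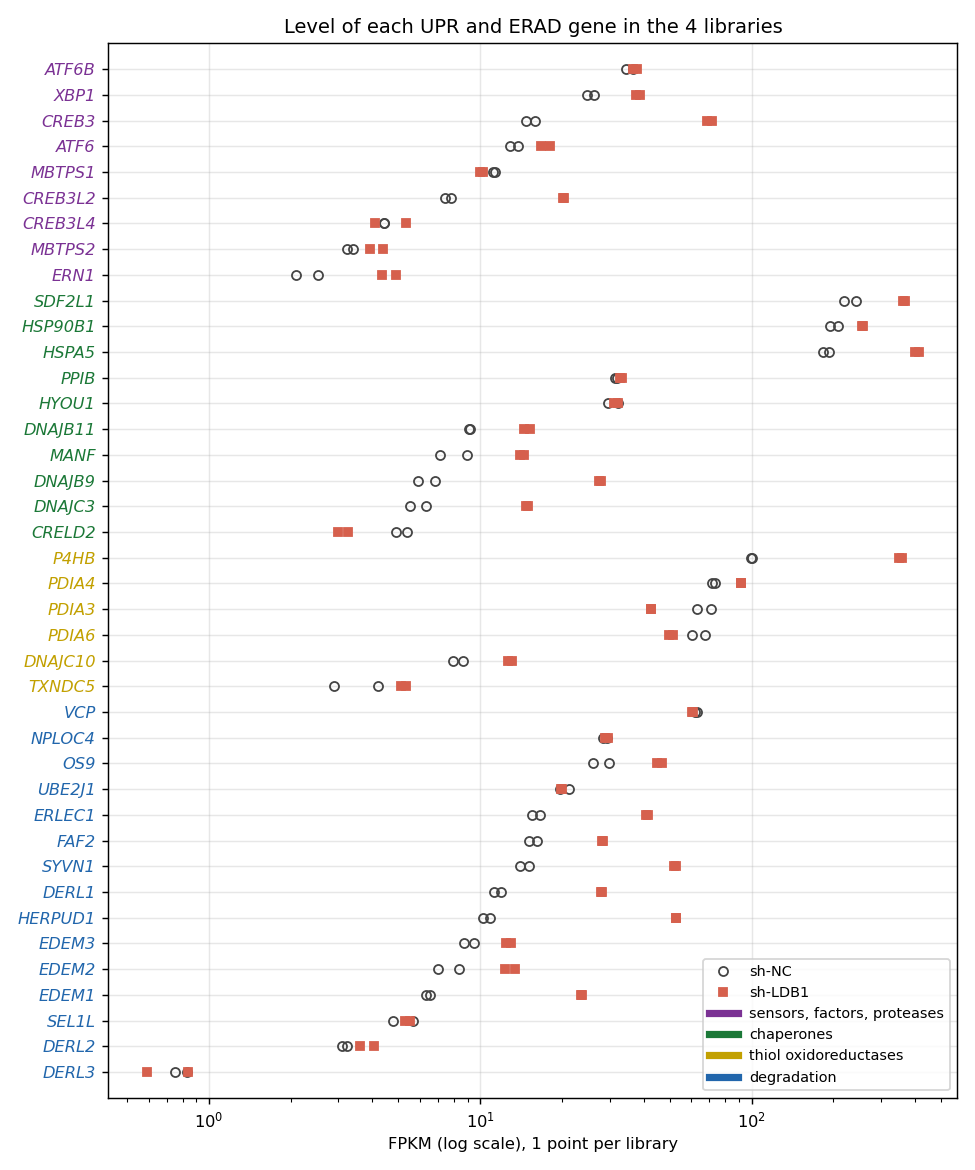
Level of each member in FPKM (horizontal log axis), 1 point per library, with open circles for the 2 sh-NC and filled squares for the 2 sh-LDB1 libraries. Genes are grouped by role, and the points of the groups are furthest apart for HERPUD1, CREB3 and DNAJB9, while those of VCP, NPLOC4 and HYOU1 lie together.

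**Figure D2:**
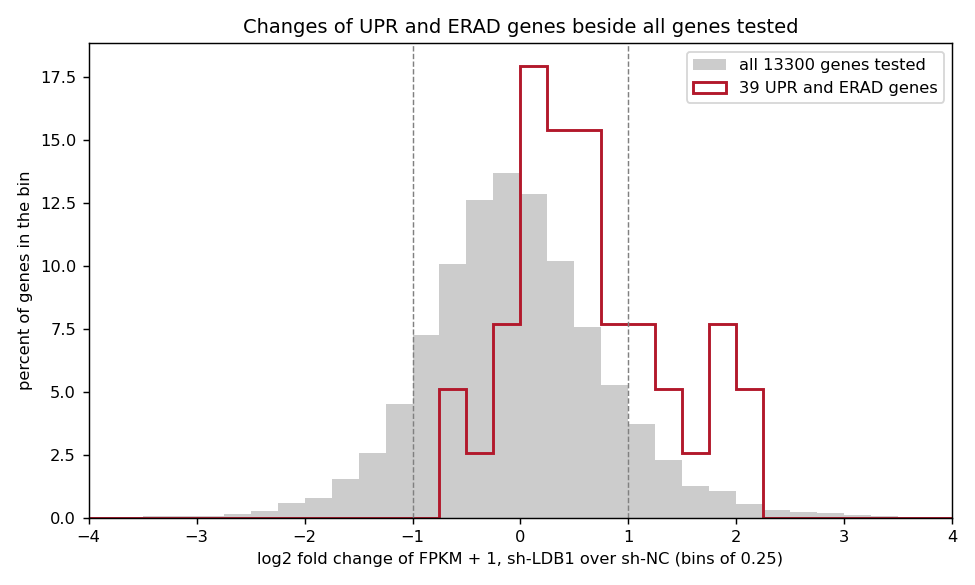
Share of genes (vertical axis, percent) in bins of log2 fold change of FPKM + 1 (horizontal axis, shown from -4 to 4) for all 13300 genes tested, in grey, and for the 39 members, as a line. Dashed lines mark 2-fold, and 11 members lie to the right of the right-hand line and 0 to the left of the left-hand one.

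Promoters of several members hold the DNA elements through which ATF6 and XBP1 are known to act. The ER stress response element (ERSE) is CCAAT, any 9 bases, then CCACG, ERSE-II is ATTGG, any base, then CCACG, and the UPR element was searched as TGACGTGG or TGACGTGA. Both strands were searched for exact matches only, so near matches of an element were not counted. The window ran from 250 bases before to 50 after each annotated start in the RefSeq promoters of build GRCh38.p14. That table held 43 promoters of 37 members, since 6 members had 2 starts, and DERL1, DERL3 and PDIA3 were not matched. ERSE was present in 5 of the 37 members (13.5%) and in 27 of all 35116 promoters (0.0769%), ERSE-II in 3 members (8.11%) and 19 promoters (0.0541%), and the UPR element in 5 members (13.5%) and 413 promoters (1.18%). These elements were first described in promoters of genes such as HSPA5, so their presence in the list is background. The promoter of HSPA5 up to its start is shown because its ERSE is the classic case, followed by the stretches around the first match in the other ERSE members. Capitals mark the element, each sequence runs 5′ to 3′ on the strand of its gene, and in CRELD2 the element lies on the opposite strand:
HSPA5 (chr9:125241344-125241593, minus strand): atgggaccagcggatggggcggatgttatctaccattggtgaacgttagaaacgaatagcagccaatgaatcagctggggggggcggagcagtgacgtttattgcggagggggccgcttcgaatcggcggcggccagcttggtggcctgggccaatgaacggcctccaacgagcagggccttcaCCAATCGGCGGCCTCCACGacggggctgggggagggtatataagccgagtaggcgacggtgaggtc
XBP1 (chr22:28800588-28800636, minus strand): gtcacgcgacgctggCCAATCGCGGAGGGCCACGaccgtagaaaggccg
HSP90B1 (chr12:103930201-103930249, plus strand): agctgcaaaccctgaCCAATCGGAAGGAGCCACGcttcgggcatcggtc
PDIA6 (chr2:10812838-10812886, minus strand): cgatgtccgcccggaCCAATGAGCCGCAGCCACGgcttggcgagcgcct
CRELD2 (chr22:49918539-49918587, plus strand): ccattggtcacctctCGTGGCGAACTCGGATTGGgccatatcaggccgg

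With the first transcribed base counted as 0, the ERSE began at base -66 in HSPA5, -52 in XBP1, -86 in PDIA6 and -80 in CRELD2, and HSP90B1 held 2, at -194 and -89. The RNA of these 5 genes did not change alike. HSPA5, XBP1 and HSP90B1 rose, by 1.12, 0.56 and 0.35 on the log2 scale, whereas PDIA6 and CRELD2 fell by 0.34 and 0.57. The 3 ERSE-II members are shown in the same way for the same reason, their changes lying far apart:
HERPUD1 (chr16:56932010-56932050, plus strand): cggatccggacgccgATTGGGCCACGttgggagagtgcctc
SDF2L1 (chr22:21642099-21642139, plus strand): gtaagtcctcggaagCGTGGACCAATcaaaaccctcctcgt
HYOU1 (chr11:119057365-119057405, minus strand): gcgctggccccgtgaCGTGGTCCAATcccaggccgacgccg

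In SDF2L1 and HYOU1 the element lies on the opposite strand, and HYOU1 held a second match at -79. HERPUD1 had the largest log2 fold change of the 39 tested members, 2.21, SDF2L1 rose by 0.65, and HYOU1 was at 0.04 and not called. Of the 5 members with a UPR element, DNAJC10 rose by 0.58, and TXNDC5, HYOU1, UBE2J1 and VCP were not called. In HYOU1 the UPR element at -188 shares bases with the first ERSE-II. The single parts of ERSE were common, with CCAAT in 34.6% and CCACG in 38.1% of all promoters. Of the 37 members, 73% held CCAAT and 78.4% CCACG, where a member with 2 starts was counted if either promoter matched.

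**Figure D3:**
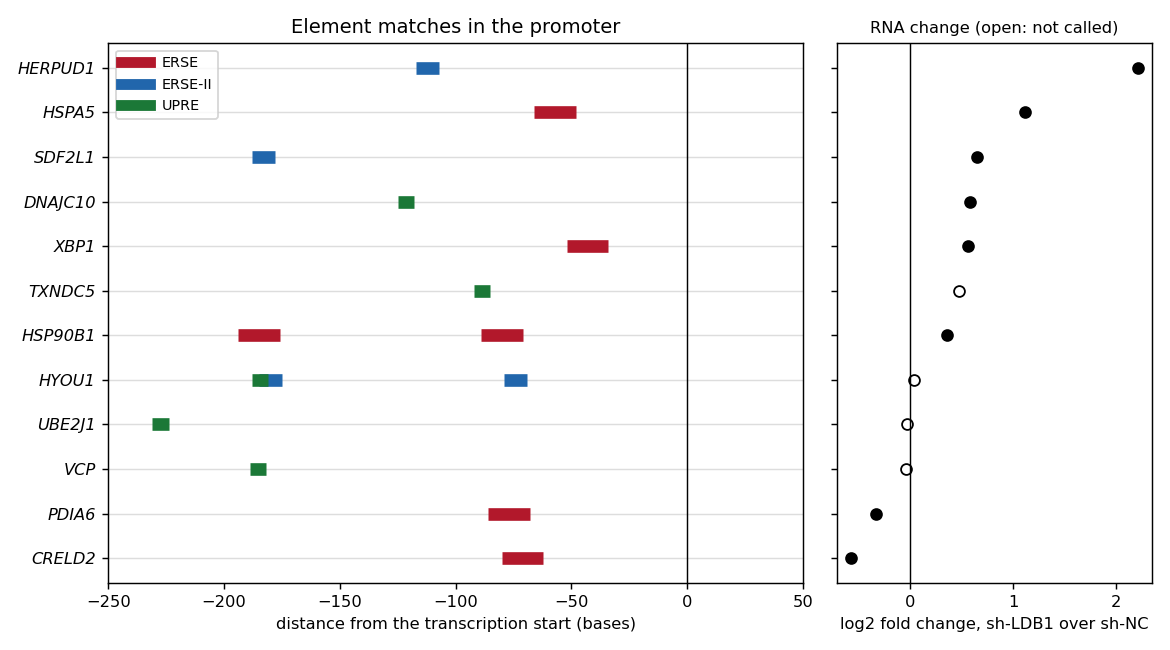
Left, position of ERSE, ERSE-II and UPR element (UPRE) matches in bases from the transcription start for the 12 members that hold any; right, log2 fold change of the same genes, with open points for those not called. The ERSE, in red, occurs both in genes that rose, such as HSPA5, and in PDIA6 and CRELD2, which fell.

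Among the sensors, membrane-bound transcription factors and site proteases, 6 of 9 rose, 0 fell, and the median log2 fold change was 0.36. Over all genes tested, 29.9% were called higher and 37.4% lower. The 2 largest changes were in the CREB3 family, transcription factors that, like ATF6, are held in the ER membrane until they are cut. CREB3 (chr9:35732598-35736999) was at 15.9 and 14.8 FPKM under sh-NC against 68.3 and 71.7 FPKM under sh-LDB1. CREB3L2, a member known from secretory cartilage cells, was at 7.43 and 7.78 FPKM under sh-NC against 20.4 and 20.2 FPKM under sh-LDB1. Both groups were well separated, and the log2 fold changes were 2.12 ± 0.06 (SE, adjusted p = 8.1e-05) for CREB3 and 1.31 ± 0.05 (adjusted p = 0.00012) for CREB3L2. The family did not move as one: CREB3L4 was at 4.43 and 4.44 FPKM under sh-NC against 4.11 and 5.33 FPKM under sh-LDB1, so the control values lay between the knockdown values, and it was not called (adjusted p = 0.66). Of the exons of CREB3, 8.2% overlap GBA2 on the opposite strand, and the use of strand in counting was not stated.

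The IRE1 branch was higher at both of its steps. ERN1, the kinase and RNase that cuts XBP1 mRNA, was at 2.53 and 2.10 FPKM under sh-NC against 4.88 and 4.34 FPKM under sh-LDB1. XBP1 was at 24.7 and 26.3 FPKM under sh-NC against 37.5 and 38.7 FPKM under sh-LDB1. Neither gene overlapped between groups, and the log2 fold changes were 0.76 ± 0.10 (SE, adjusted p = 0.0033) and 0.56 ± 0.05 (adjusted p = 0.00091). Values per gene do not separate spliced from unspliced XBP1 mRNA, so the activity of IRE1 was not measured.

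Changes in the ATF6 branch were smaller. ATF6 was at 12.9 and 13.8 FPKM under sh-NC against 18.1 and 16.7 FPKM under sh-LDB1, a rise of 0.36 ± 0.06 (log2, SE, adjusted p = 0.0074). Its paralog ATF6B was at 36.6 and 34.4 FPKM under sh-NC against 36.6 and 37.7 FPKM under sh-LDB1, groups that overlapped, and was not called (0.06 ± 0.05, adjusted p = 0.32). MBTPS1, the site-1 protease that cuts ATF6 first, was at 11.3 and 11.2 FPKM under sh-NC against 9.96 and 10.3 FPKM under sh-LDB1. It was lower in both knockdown libraries but not called (adjusted p = 0.06), while voom on recovered reads called it lower (-0.15, adjusted p = 0.0271) and its sign turned with the library total as scaling (0.02). MBTPS2, the site-2 protease, was at 3.41 and 3.24 FPKM under sh-NC against 3.94 and 4.38 FPKM under sh-LDB1. Its rise of 0.25 ± 0.08 (log2, SE, adjusted p = 0.046) was no longer called without any 1 of the 4 libraries (adjusted p = 0.081 without sh-LDB1 replicate 1, 0.215 without sh-LDB1 replicate 2, 0.0986 without sh-NC replicate 1 and 0.153 without sh-NC replicate 2), nor with no filter (adjusted p = 0.0958) or with the replicate numbers as a block (adjusted p = 0.0819).

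Of the 10 chaperones and co-chaperones, 7 rose (70%, against 29.9% of all genes tested) and 1 fell (10%, against 37.4%). Their median log2 fold change was 0.65. HSPA5 (BiP; chr9:125234853-125241382), the Hsp70 of the ER that holds the sensors inactive, was at 183 and 193 FPKM under sh-NC against 402 and 414 FPKM under sh-LDB1. Its mean rose 2.17-fold, with a log2 fold change of 1.12 ± 0.05 (SE, adjusted p = 0.00015), and its share of the summed member FPKM went from 13.1% and 13.8% to 17.3% and 17.5%. HSP90B1 (GRP94), the Hsp90 of the ER, was higher than HSPA5 in both sh-NC libraries, at 194 and 208 FPKM, and lower than HSPA5 in both sh-LDB1 libraries, at 256 and 258 FPKM. It rose by 0.35 ± 0.05 (log2, SE, adjusted p = 0.0038), and its share of the summed FPKM was 13.9% and 14.96% under sh-NC against 11% and 10.9% under sh-LDB1.

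The J-domain partners of HSPA5, which direct it to its clients, rose by unequal amounts. DNAJB9, which also binds IRE1, was at 5.90 and 6.79 FPKM under sh-NC against 27.4 and 27.9 FPKM under sh-LDB1. DNAJC3, known as an inhibitor of PERK and related kinases, was at 6.30 and 5.51 FPKM under sh-NC against 14.98 and 14.8 FPKM under sh-LDB1. The log2 fold change was 1.97 ± 0.07 (SE, adjusted p = 0.00012) for DNAJB9 and 1.20 ± 0.07 (adjusted p = 0.00032) for DNAJC3. DNAJB11, which binds unfolded clients directly, rose by 0.64 ± 0.05 (log2, SE, adjusted p = 0.00065), from a mean of 9.15 ± 0.03 FPKM (SD, n = 2) to 14.8 ± 0.6 FPKM (SD, n = 2).

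HYOU1 (GRP170), a nucleotide exchange factor of HSPA5, stood apart from these. It was at 32.1 and 29.6 FPKM under sh-NC against 32.1 and 31.1 FPKM under sh-LDB1, groups that overlapped (log2 fold change 0.04 ± 0.06, SE, adjusted p = 0.60), and it was called only with the library total as scaling (0.20, adjusted p = 0.0302). SDF2L1, a small luminal partner of the J-domain proteins, was the most abundant member per length in sh-NC, at 243 and 219.7 FPKM, and was at 361.5 and 366 FPKM in sh-LDB1. MANF, a secreted stress-induced factor that binds HSPA5, rose by 0.77 ± 0.11 (log2, SE, adjusted p = 0.0039). CRELD2, another secreted stress-induced protein, fell instead, from 5.36 and 4.91 FPKM to 3.25 and 2.99 FPKM (-0.57 ± 0.08, adjusted p = 0.0033). PPIB, the cyclophilin that isomerises proline bonds in the ER, was at 31.5 and 31.9 FPKM under sh-NC against 32.8 and 33.4 FPKM under sh-LDB1 and was not called (adjusted p = 0.25), and 26.6% of its exons lie opposite SNX22.

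The 6 thiol oxidoreductases, which make, break and rearrange disulfide bonds, split in direction: 3 rose, 2 fell, and the median was 0.40. The shares were 50% higher, against 29.9% of all genes tested, and 33.3% lower, near the 37.4% of all genes. P4HB, the founding protein disulfide isomerase and also the beta subunit of collagen prolyl hydroxylase, was at 100.04 and 99.6 FPKM under sh-NC against 349.6 and 359 FPKM under sh-LDB1. The log2 fold change was 1.82 ± 0.04 (SE, adjusted p = 6.9e-05), and P4HB went from 7.19% and 7.16% to 15% and 15.2% of the summed member FPKM. PDIA3 (ERp57), which works on glycoproteins held by calnexin and calreticulin, moved the other way, from 62.7 and 71.0 FPKM to 42.7 FPKM in both sh-LDB1 libraries. Its fall of -0.63 ± 0.07 (log2, SE, adjusted p = 0.0017) was the largest decrease among the members tested.

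PDIA6, an isomerase that binds HSPA5 and IRE1, was at 67.2 and 60.5 FPKM under sh-NC against 49.5 and 51.1 FPKM under sh-LDB1 (-0.34 ± 0.06, adjusted p = 0.0096). This call was lost when libraries were scaled to the same total (adjusted p = 0.0882) and without sh-LDB1 replicate 1 (adjusted p = 0.0644), and 25.2% of the exons of PDIA6 lie opposite ATP6V1C2. PDIA4 (ERp72) rose by 0.33 ± 0.04 (log2, SE, adjusted p = 0.0019), and DNAJC10, a reductase that opens disulfides of ERAD clients, rose by 0.58 ± 0.06 (adjusted p = 0.0016). TXNDC5 (ERp46) was at 4.20 and 2.89 FPKM under sh-NC against 5.11 and 5.35 FPKM under sh-LDB1. Its controls lay far apart and it was not called (adjusted p = 0.0503), but passed without sh-NC replicate 1 (adjusted p = 0.00899), under both other scalings (adjusted p = 0.0228 and 0.0319), with voom (adjusted p = 0.0025) and with the replicate block (adjusted p = 0.048). A read-through gene with BLOC1S5 shares 61.0% of the exons of TXNDC5, so its values are uncertain.

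Of the 15 degradation genes, 14 were tested: 9 rose (64.3%, against 29.9% of all genes tested) and 0 fell (against 37.4%). Past 2-fold, 5 rose (35.7%, against 9.50%), and the median log2 fold change was 0.69. The ubiquitin ligase complex of the ER membrane held both the largest change and one of the smallest. HERPUD1 (chr16:56932142-56944864), a membrane protein that binds the ligase and organises the complex, was at 10.3 and 10.9 FPKM under sh-NC against 52.6 and 52.5 FPKM under sh-LDB1, a 4.97-fold higher mean. SYVN1 (HRD1), the ligase itself, was at 14.1 and 15.2 FPKM under sh-NC against 52.0 and 52.7 FPKM under sh-LDB1. SEL1L, the adaptor that brings clients to SYVN1, was at 4.78 and 5.68 FPKM under sh-NC against 5.498 and 5.27 FPKM under sh-LDB1. The first 2 were separated between groups (log2 fold changes 2.21 ± 0.05, adjusted p = 6.9e-05, and 1.77 ± 0.05, adjusted p = 9.1e-05; SE), whereas the SEL1L groups overlapped (0.04 ± 0.09, adjusted p = 0.73). The ubiquitin-conjugating enzyme of the complex, UBE2J1, was at 19.8 and 21.2 FPKM under sh-NC against 19.9 and 20.01 FPKM under sh-LDB1, which also overlapped (-0.04 ± 0.05, adjusted p = 0.57), with the sign turned by both other scalings (0.13 and 0.06, not called).

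All 5 genes that pick out glycoproteins for disposal rose, a call made for 29.9% of all genes tested. EDEM1, EDEM2 and EDEM3 trim mannose from misfolded glycoproteins, and EDEM1 was at 6.30 and 6.52 FPKM under sh-NC against 23.5 and 23.8 FPKM under sh-LDB1 (1.73 ± 0.05, adjusted p = 8.3e-05). EDEM2 rose by 0.68 ± 0.10 and EDEM3 by 0.44 ± 0.06 (log2, SE, adjusted p = 0.0038 for both). ERLEC1, a lectin that reads the trimmed sugar, was at 15.5 and 16.6 FPKM under sh-NC against 41.0 and 41.4 FPKM under sh-LDB1 (1.31 ± 0.05, adjusted p = 0.00012). OS9, the other such lectin, rose by 0.70 ± 0.08 (adjusted p = 0.0018), and 15.8% of its exons are shared with AGAP2-AS1 on the same strand.

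The derlins, which form the passage through the membrane, differed among themselves in level. DERL1 was at 11.3 and 11.9 FPKM under sh-NC against 28.1 and 27.8 FPKM under sh-LDB1 (1.20 ± 0.05, adjusted p = 0.00014). DERL2 was at 3.10 and 3.23 FPKM under sh-NC against 3.60 and 4.08 FPKM under sh-LDB1, higher in both knockdown libraries but not called (0.22 ± 0.08, adjusted p = 0.081), though it passed under both other scalings (adjusted p = 0.0225 and 0.0354) and with voom on recovered reads (adjusted p = 0.0312). DERL3, under 1 FPKM in all 4 libraries, had 34 to 51 reads per library, and 77% of its exons lie opposite SMARCB1.

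Of the extraction motor in the cytosol, VCP and NPLOC4 were close to their control levels. UFD1, the partner of NPLOC4 and not a member, fell by 0.82 (log2), as described below. VCP (p97), the ATPase that pulls proteins out of the membrane, was at 61.7 and 62.9 FPKM under sh-NC against 60.4 and 60.8 FPKM under sh-LDB1. Its cofactor NPLOC4, which reads ubiquitin chains, was at 29.4 and 28.4 FPKM under sh-NC against 29.6 and 28.9 FPKM under sh-LDB1. The NPLOC4 groups overlapped, those of VCP did not, and neither was called (adjusted p = 0.75 and 0.39). The log2 fold changes were 0.02 ± 0.04 and -0.04 ± 0.04 (SE), and with the library total as scaling VCP turned to 0.13 (adjusted p = 0.0424) and NPLOC4 to 0.18 (adjusted p = 0.0194). FAF2 (UBXD8), the membrane anchor that recruits VCP, rose by 0.81 ± 0.05 (log2, SE, adjusted p = 0.00036), the mean being 15.7 ± 0.8 FPKM under sh-NC and 28.2 ± 0.2 FPKM under sh-LDB1 (SD, n = 2 each).

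**Figure D4:**
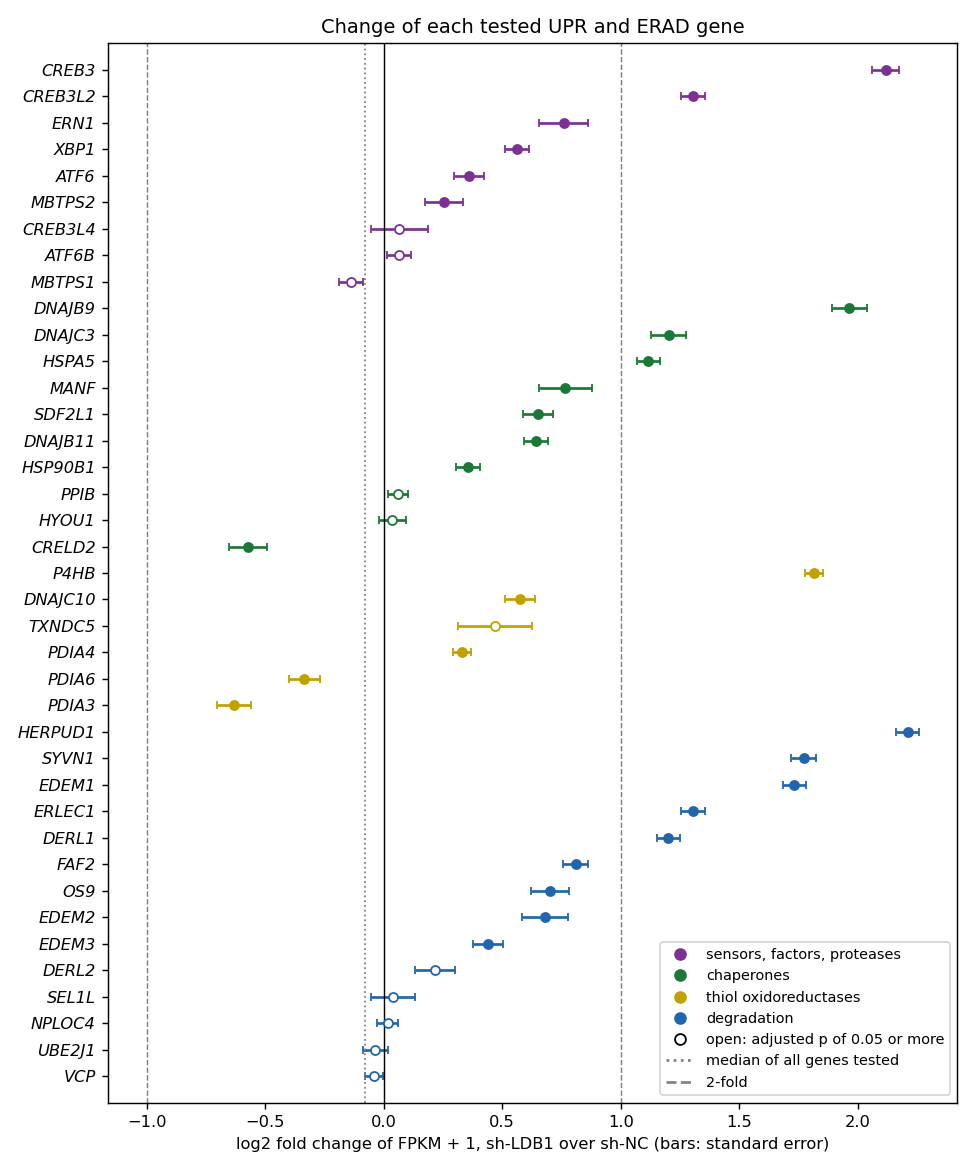
Log2 fold change of FPKM + 1, sh-LDB1 over sh-NC, for the 39 tested members in order within each role; bars are standard errors from limma and open points were not called. Dashed lines mark 2-fold and the dotted line the median of all genes tested (-0.08); CREB3, DNAJB9, P4HB and HERPUD1 lead their roles, and PDIA3, CRELD2 and PDIA6 are the filled points below 0.

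The rest of the pathway was described from a further list of 103 genes that are not members. Of these, 101 had values and 91 were tested: 43 rose and 30 fell, with a median log2 fold change of 0.17, and 9 rose and 6 fell past 2-fold. This is 47.3% higher and 33.0% lower, against 29.9% and 37.4% of all genes tested, nearer to all genes than the members were. Past 2-fold the shares were 9.89% higher and 6.59% lower, against 9.50% and 10.3% of all genes, so the rise past 2-fold was near that of all genes. The further co-chaperones were the group most like the members, with 12 of 14 higher (85.7%), 0 lower and a median of 0.59. Among them HSPA13, an Hsp70 relative of the ER, rose by 1.38, FKBP11 by 1.22 and CNPY3 by 1.04. The other thiol oxidoreductases held 4 of 13 higher (30.8%, against 29.9% of all genes) and 6 lower (46.2%, against 37.4%). ERO1A, which reoxidises the disulfide isomerases, rose by 1.04, and TMX4 and TXNDC16 had log2 fold changes of -1.88 and -1.11. In the lectin cycle, which holds glycoproteins while they fold, 4 of 10 rose (40%) and 3 fell (30%). The changes of its 2 chaperones were small. CALR was at 318 and 291 FPKM under sh-NC against 322 and 326 FPKM under sh-LDB1 (0.09 ± 0.06, adjusted p = 0.22), which passed only without sh-NC replicate 1 (adjusted p = 0.0298) or under another scaling. CANX was at 133 and 136 FPKM under sh-NC against 153 and 149 FPKM under sh-LDB1 (0.17 ± 0.04, adjusted p = 0.021), a call lost without sh-LDB1 replicate 1 (adjusted p = 0.148) or sh-LDB1 replicate 2 (adjusted p = 0.0996) and with no trend of the variance (adjusted p = 0.0612). MAN1A1, a mannosidase, fell by 1.06.

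Of the 11 PERK arm and stress genes, 6 rose (54.5%, against 29.9% of all genes tested) and 4 fell (36.4%, near the 37.4% of all genes). EIF2AK3, which encodes PERK, was at 2.93 and 3.62 FPKM under sh-NC against 14.01 and 15.3 FPKM under sh-LDB1 (1.87 ± 0.10, adjusted p = 0.00023). ATF4, the factor translated when PERK is active, fell from 138 and 133 FPKM to 99.4 and 102.7 FPKM (-0.42 ± 0.04, adjusted p = 0.0013). DDIT3 (CHOP), a target of ATF4, rose by 0.37 ± 0.05 (adjusted p = 0.0022). CHAC1 and ASNS, also known as ATF4 targets and named after their values were seen, fell. The log2 fold change was -0.50 ± 0.11 (SE, adjusted p = 0.013) for CHAC1 and -0.87 ± 0.15 for ASNS. ASNS was at 1.64 and 1.87 FPKM under sh-NC against 0.57 and 0.43 FPKM under sh-LDB1. It passed the filter of 1 FPKM only through sh-NC, so its adjusted p is not given, though it is counted among the 4 that fell. The ASNS knockdown mean was 28.6% of the control mean, a fall that the FPKM + 1 scale understates. PPP1R15B, SESN2 and TRIB3 of the same group, also named after their values were seen, rose instead. Their log2 fold changes were 0.99, 0.46 and 0.17 (adjusted p = 0.00026, 0.0022 and 0.017). PPP1R15A, the phosphatase subunit that ends the PERK signal, had a log2 fold change of -0.25 ± 0.07 (adjusted p = 0.034), which was not called without sh-NC replicate 1 (adjusted p = 0.0956), sh-LDB1 replicate 1 (adjusted p = 0.0651) or sh-LDB1 replicate 2 (adjusted p = 0.163). It was also not called with the library total as scaling (-0.077, adjusted p = 0.368), with the median of ratios (-0.15, adjusted p = 0.129), with no filter (adjusted p = 0.0766) or with no trend (adjusted p = 0.0632). NUPR1, a stress-induced nuclear protein, was at 0.12 and 0.10 FPKM under sh-NC against 2.04 and 2.55 FPKM under sh-LDB1 (1.57 ± 0.16, log2, SE). It passed the filter of 1 FPKM only through the sh-LDB1 libraries, where it was high. Its adjusted p is therefore not given, though it is counted among the 6 that rose. With 8 and 11 reads in the sh-NC libraries, its fitted change depended on the scale, at 3.52 with a pseudocount of 0.1 and 4.33 with voom, and the ratio of the mean FPKM was 21.3. The sensor RNAs of the IRE1, ATF6 and PERK branches were each higher, while the ATF4 RNA was lower.

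Of the 7 tested IRE1 partners and cofactors 2 rose (28.6%) and 3 fell (42.9%), near the 29.9% and 37.4% of all genes tested. Their median was -0.23. They include the subunits of NF-Y, the factor that binds CCAAT and so the first part of the ERSE, named here after their values were seen: NFYA and NFYB fell by 0.47 and 0.62 on the log2 scale and NFYC rose by 0.41. Of the 36 other degradation factors, 15 rose (41.7%, against 29.9% of all genes) and 14 fell (38.9%, near the 37.4% of all genes), with a median of 0.08. The ubiquitin-like modifier UFM1 (1.19), the VCP-binding membrane protein SELENOS (1.15) and FAM8A1 (1.03), a part of the SYVN1 complex, rose past 2-fold. UBXN4, which tethers VCP to the membrane, fell by 1.04, and NGLY1, the enzyme that strips glycans from extracted proteins, by 1.02. UFD1, the partner of NPLOC4, was also named after its values were seen, and fell by 0.82, from 39.5 and 39.7 FPKM to 22.3 and 21.7 FPKM.

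**Figure D5:**
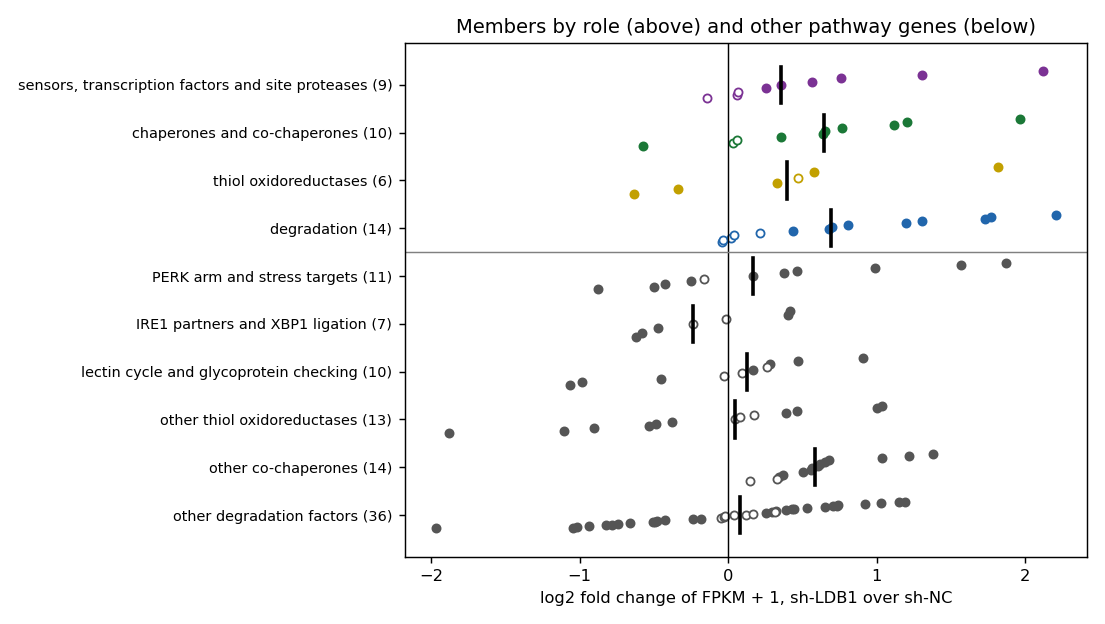
Log2 fold change of each tested gene, sh-LDB1 over sh-NC, by role, with the number tested in brackets; members are coloured, other pathway genes grey, open points were not called and the bars are medians. Medians run from 0.36 to 0.69 for the 4 member roles and from -0.23 to 0.59 for the 6 other groups.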

How the data were processed

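RNA-seq was analysed in 4 libraries, 2 per group, grouped and numbered by the sample labels; no source used here says whether replicates were separate cultures. Members and gene lists were chosen with earlier results of these data known. Per the study's methods, reads were filtered by the authors, aligned by HISAT and tested with DESeq2; the submitters' processing notes name HISAT2 2.0.5 and hg38. The annotation, counting tool and strand setting were not given in the sources used here. The authors deposited FPKM per gene and library, unpooled, with 0 columns of no sample. Values were whole multiples of 1 read for 99.96% of genes (within 0.01 reads) with gene lengths fitted to the values, and for 88.2% to 88.7% of low values of single-transcript genes (within 0.05 reads) with annotated lengths. The depth is 14487780 to 16791905 reads per library.

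log2(FPKM + 1) was fitted with limma 3.58.1 (R 4.3.3; eBayes with trend, no block) for genes averaging 1 FPKM or more, with Benjamini-Hochberg adjustment over all 13300 genes tested. All tests are two-sided. The script was tested on simulated data. Named were all 40 members, with values per library for the sensor, factor and protease genes, members past 2-fold and the 3 with the smallest change, other pathway genes past 2-fold and a fixed few besides, except 1 that is not reported here. Gene positions and overlaps are from GENCODE release 44 (hg38), promoters from RefSeq (GRCh38.p14). Alternatives varied the pseudocount, filter, scaling, trend, block, a voom fit on recovered reads and the libraries left out. The voom fit called 4233 genes higher and 5214 lower.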

Additional observations from a re-analysis of the deposited data

How the results depend on the processing

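The counts of members that rose (25), fell (3) and rose past 2-fold (11) stayed within 1.5 times under all alternatives run. Tested against 2-fold itself, 8 members passed. The median log2 fold change of the members, 0.56, was 0.52 without a filter, 0.64 at a mean of at least 5 FPKM, 0.73 scaled by total only and 0.66 scaled by median of ratios over expressed genes, and 0.52 to 0.59 without 1 library. With the replicate block, 25 members rose, 3 fell and 11 rose past 2-fold; MBTPS2 lost its call and TXNDC5 gained one (adjusted p = 0.048). The correlation of same-numbered deviations was 0.0196 over all genes tested, so the numbers were not taken as pairs.

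Of 60 named genes, 44 kept direction and side of the threshold in all 12 alternatives. Signs turned only for members that were not called: MBTPS1 (0.019), UBE2J1 (0.13) and VCP (0.13) scaled by total only, UBE2J1 (0.0595) and VCP (0.0582) scaled by median of ratios. ATF6B, DERL2, HYOU1, NPLOC4, PPIB, TXNDC5, VCP and CALR were called higher when scaled by total only, where PDIA6 and PPP1R15A were no longer called. NUPR1 (1.57) was at 3.52 with a pseudocount of 0.1 and 4.33 with voom. Without 1 library, the range was -0.0893 to 0.22 for CREB3L4, -0.0204 to 0.0925 for HYOU1, -0.0073 to 0.041 for NPLOC4, -0.0648 to 0.144 for SEL1L and -0.0844 to 0.012 for UBE2J1. The causes were not tested. With 2 libraries per group, and 1 where a library was left out, the lone library is assumed to vary like the other group.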
